A study of Mus musculus with 2 samples.

Results

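Among the positions listed as Ptf1a peaks in 266.6 cells, 1900 stood alone in the list, with no other listed position within 100 kb on either side. The transcription factor Ptf1a, of the basic helix-loop-helix family, is required for the pancreas to form and for acinar cells, which make digestive enzymes, to keep their state. It binds DNA in a complex with an E protein partner and with Rbpj or its pancreatic relative Rbpjl, at an E-box paired with a TC-box. Binding sites of such lineage factors often lie in groups around the genes they act on, so sites far from any other form a class of their own by position. The members were taken from the authors' list of Ptf1a peaks on chromosomes 1 to 19 by distance alone. They made up 6.19% of the 30691 listed positions and 6.27% of the 30327 on those chromosomes. The remaining 28427 listed positions there are called the other sites. The list was built from the ChIP library, so an excess of ChIP reads at a member, and the lack of listed neighbours beside it, were set by how members were chosen.

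The study asked where Ptf1a binds in a cell line used to stand in for early pancreatic progenitors, to set bound sites beside genes of embryonic pancreatic buds. Both libraries came from the 266.6 line, a mouse pancreatic line of a C57BL/6 X SJL background, at passage 26, fixed in 1% formaldehyde for 10 min. The Ptf1a library was made from 2 immunoprecipitations pooled before sequencing and held 28502488 reads, and the library of input chromatin, made without antibody, held 27959618 reads. This is 1 line with 1 library per group and no replicate, so tests on reads compare these libraries and not conditions, and all intervals cover counting error only. PCR copies of 1 molecule cannot be recognised without molecular identifiers, so the intervals are too narrow. Intervals on shares of sites also treat sites as independent, though neighbouring sites share surroundings and set each other's distances. In the ChIP library 10.2% of reads repeated the position and strand of another read, and in the input library 3.29% did. Reads outside the listed sites stood at 0.925 ChIP reads per input read, and every ratio of ChIP to input below is relative to that value. Positions refer to mm9. No genome or gene annotation of that build was used here, so genes and sequences at the sites are not named.

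Most lone sites lay within 200 kb of another listed position, and a smaller number lay much farther from any. The nearest listed position lay at a median of 153440 bp, with quartiles of 122186 and 245586 bp, against a median of 7096 bp over all listed positions of chromosomes 1 to 19. Distances were 100 to 200 kb at 1252 lone sites. They exceeded 200 kb at 648, 500 kb at 126 and 1 Mb at 34. Some lone sites followed each other along the chromosomes. The next listed position after a lone site already has 1 gap over 100 kb, so the rule itself favours such runs. The number expected from the rule was not computed. Of the 1900, 675 had no lone site next to them in the list, and 1225 lay in 432 runs of 2 or more consecutive lone sites. The longest runs had 10 sites, on chromosome 12 from 58597568 to 69648132 and on chromosome 14 from 81883642 to 93306930, each over 11 Mb long. A run of 8 on chromosome 11, from 37773576 to 39731413, took up 1958 kb.

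The 5 most remote sites had heights, as the authors' list gives them, of 29, 45, 30, 50 and 93 in order of falling distance. The site at 59960511 on chromosome 5 lay 4242765 bp from the nearest listed position, with 36 ChIP and 3 input reads within 100 bp (ratio 13.0, exact 95% interval 4.10 to 65.9). At 86394979 on chromosome 13 the distance was 1893159 bp, with 57 ChIP reads and 1 input read. At 131337337 on chromosome 6 it was 1843240 bp, with 43 and 0 reads. The site at 75022065 on the same chromosome, at 1814807 bp, had 76 and 2 reads. The strongest of the 5 lay at 83805593 on chromosome 14, 1804930 bp from its neighbour, with 131 and 8 reads. ChIP reads thus exceeded input reads at each of these 5 sites. At the other edge of the class, the members just past the defining distance were at 120979263 on chromosome 1 (100074 bp, 55 ChIP and 7 input reads), 24741020 on chromosome 1 (100082 bp, 66 and 53) and 13420992 on chromosome 2 (100133 bp, 71 and 3). The nearest sites that missed it were at 73734350 on chromosome 18 (99968 bp, 48 and 5 reads), 21415037 on chromosome 9 (99955 bp, 44 and 6) and 25187064 on chromosome 14 (99950 bp, 34 and 5).

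Lone sites had nearly the same ChIP counts as other sites at the middle of their range and lower counts at its top. The authors' peak height, a whole number from 20 upward that the list gives for each position, had a median of 34 at lone sites (quartiles 25 and 57) and 36 at other sites (25 and 65). Within 100 bp of the position, lone sites held a median of 46 ChIP reads, with quartiles of 31 and 82 and a range of 18 to 780. Other sites held a median of 49, with quartiles of 32 and 96 and up to 2679. Heights of 100 or more were found at 9.53% of lone sites and 13.6% of other sites, and heights of 200 or more at 1.95% and 3.14%. No lone site reached a height of 300. That is 0 of 1900, which allows a share of up to 0.158%, where 131 of the 28427 other sites (0.461%) did. Other sites weighted to lie in regions of the same input depth as the lone sites gave 0.255% at 300 or more, 2.60% at 200 or more and 13.5% at 100 or more. Among other sites over 10 kb from a listed position, 24 of 11342 (0.212%) reached 300.

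Nearly all lone sites had more ChIP than input reads. Of the 1900, 1887 (99.3%, Wilson 95% interval 98.8 to 99.6%) were called higher in the ChIP library by the exact binomial test at an adjusted p under 0.05, against a background of 98.1% of all listed sites. Called lower were 2, against 0.293% of all listed sites and 0.306% of the other sites, and 11 did not pass. Summed over all lone sites, 148047 ChIP reads stood against 8625 input reads, a ratio of 18.6 (18.2 to 19). Single sites had a median ratio of 14.5 with 0.5 reads added to each count, and quartiles of 7.88 and 29.3. Input reads within 100 bp numbered 4 at the median site, with quartiles of 2 and 6. No input read was found at 106 lone sites (5.58%, 4.63 to 6.70%), and at 2.29% of other sites (2.13 to 2.47%). With those 106 sites set against 3 input reads, the median ratio was 15.7.

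**Figure D1:**
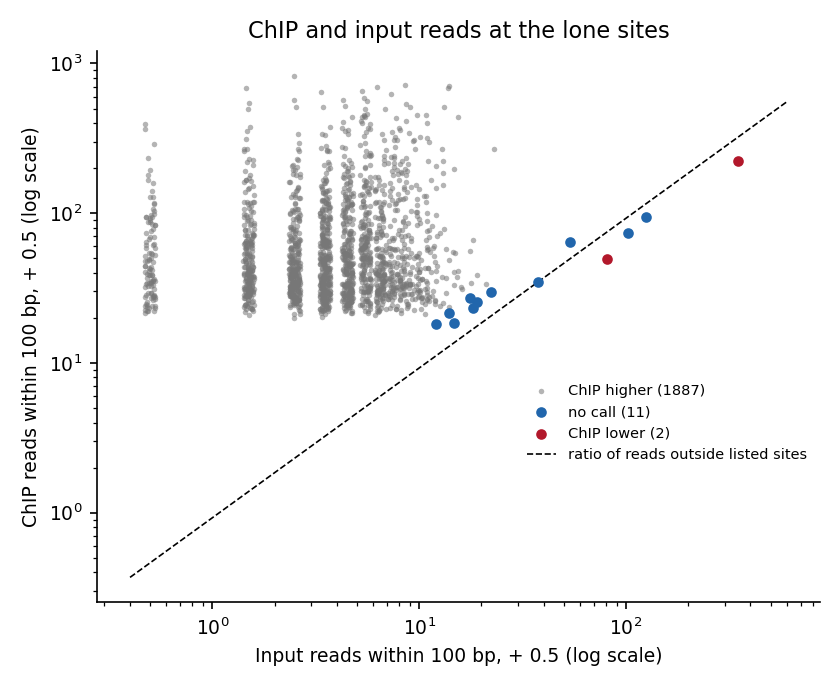
ChIP reads against input reads within 100 bp of each of the 1900 lone sites, on log axes with 0.5 added to each count and a small random shift so that points can be told apart. The dashed line is the ratio of 0.925 found outside listed sites; 1887 sites lie above it as called, and the 2 sites called lower hold 84 and 350 input reads.

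The 10 lone sites with the firmest excess combined 302 to 780 ChIP reads with 0 to 3 input reads. The site at 63733170 on chromosome 12 was also the highest lone site by the authors' height, 295. With 690 ChIP reads against 1 input read, its ratio was 746 (exact 95% interval 133 to 29518), and the nearest listed position was 649 kb away. At 38278654 on chromosome 11, within the run of 8 lone sites given above, 780 ChIP reads stood against 2 input reads (ratio 422, 116 to 3489), the highest ChIP count of any lone site. Both sites held far fewer distinct reads, 312 and 284, since many ChIP reads shared a position and strand. Counted once per position and strand, their ratios were 355 and 161. At 89376069 on chromosome 10, 398 ChIP reads lay where the input library had 0, at least 143-fold higher with 3 reads taken as the limit that a count of 0 allows, and with an exact 95% lower limit of 116 by the interval used to rank these sites. At 96943766 on chromosome 2, in the middle of a stretch with listed positions no closer than 1489.9 kb on the left and 4063 kb on the right, 371 ChIP reads stood against 0 (at least 134-fold higher, exact lower limit 108). At 116082856 on chromosome 10 the counts were 302 and 0 (at least 109-fold higher, exact lower limit 88). These 3 sites were named for their high ratios, so many ChIP reads beside few input reads were set by that choice. The 10 kb around them led to only 1.46, 1.21 and 2.77 expected input reads within 100 bp, in the order given.

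The other 5 of these 10 sites had 1 to 3 input reads. They were 38072481 on chromosome 12 (523 ChIP reads and 1 input read, ratio 566), 49445605 on chromosome 15 (514 and 1, ratio 556), 63812809 on chromosome 6 (565 and 2, ratio 306), 63739581 on chromosome 8 (535 and 2, ratio 289) and 70761625 on chromosome 3 (652 and 3, ratio 235). The largest adjusted p among the 10, with repeated reads counted, was 1.58e-95 (exact binomial test). All 10 were ranked on the same counts, so small p-values were set by that choice. Of the 5 lone sites with the greatest heights, the 3 not yet given had more input reads. At 45580827 on chromosome 11 the height was 284, with 732 ChIP and 14 input reads (ratio 56.5, 33.5 to 104). At 13839336 on chromosome 13 it was 282, with 673 and 5 reads (ratio 146, 62.1 to 449.8). At 11235103 on chromosome 10 it was 273, with 647 and 7 reads (ratio 100.0, 48.2 to 249.6).

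The 5 lone sites with the lowest ratios had dense input reads at the site itself. They were named for low ratios within a list of ChIP peaks, and that choice favours many input reads. At 14306944 on chromosome 8, 48 ChIP reads stood against 84 input reads (ratio 0.618, exact 95% interval 0.424 to 0.891, adjusted p = 0.00902, exact binomial test). At 197067905 on chromosome 1, the last listed position of that chromosome, the counts were 228 and 350 (ratio 0.705, 0.594 to 0.835, adjusted p = 4.29e-05, exact binomial test). These were the 2 lone sites called lower. Counted once per position and strand, the reads numbered 36 against 54 at the first (ratio 0.758) and 96 against 108 at the second (ratio 1.01), so the lower ratio at the second rested on repeated reads. At 13107767 on chromosome 18 the counts were 89 and 119, but only 32 distinct reads were present in each library and 3.37% of the ChIP reads lay on the plus strand, against quartiles of 45.1 and 54.7% over all lone sites. At 36368347 on chromosome 17 they were 78 and 100, and at 48071396 on chromosome 6 they were 36 and 38. Input reads at these 5 sites were 15.7 to 85.8 times the density of the 10 kb around them. Set against that surrounding density in place of their own input reads, all 1900 lone sites passed the test with ChIP as the higher library. That setting leaves out the dense input at the site, and members came from a list of ChIP peaks. Passing it therefore says nothing about the 5 sites with the lowest ratios.

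Lone sites had a higher ratio of ChIP to input than other sites with like ChIP counts, and this difference was small once regional input depth was also matched. Sites were sorted into 7 classes of ChIP reads within 100 bp. The median ratio was higher at lone sites in all 7. It was 7.09 against 5.01 under 30 ChIP reads, 9.42 against 6.59 at 30 to 39 and 12.5 against 8.75 at 40 to 49. In the next classes it was 15.6 against 11.5 at 50 to 69 reads, 22.2 against 16.1 at 70 to 99, 33.5 against 26.8 at 100 to under 200, and 67.9 against 60.9 at 200 or more. With the other sites weighted to the lone sites by class, the pooled ratio was 18.6 at lone and 12.8 at other sites, a quotient of 1.45 (95% counting interval 1.41 to 1.48). The median ratio was 14.5 against 10.4. Within a class the ChIP counts are alike, so the difference lay in the input reads, with a median of 4 at lone sites and 5 at weighted other sites. With other sites weighted also by the input depth of the region, the median ratio of other sites was 14.1, the quotient of medians 1.03 and the quotient of pooled ratios 1.15 (1.13 to 1.18).

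Sorted by regional input depth alone, the order turned. Input reads per kb within 100 kb, leaving out the central 1 kb to each side, defined 7 classes of depth. The median ratio was lower at lone than at other sites in 6 of the 7. It was 22.0 against 26.4 under 6 reads per kb, 19.2 against 20.4 at 6 to 8, 14.5 against 16.8 at 8 to 10, and 13.8 against 14.8 at 10 to 12. In deeper regions the values were 12 against 12.9 (12 to 15 reads per kb) and 8.63 against 10.5 (15 to 20). At 20 or more, with 15 lone sites, it was 7.88 against 7.57. The median ChIP count was lower at lone sites in all 7 classes, as with 46.5 against 56.0 reads under 6 reads per kb and 43.0 against 51.0 at 10 to 12. These are descriptions of sites in the same libraries and have no test, since sites are not replicates.

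**Figure D2:**
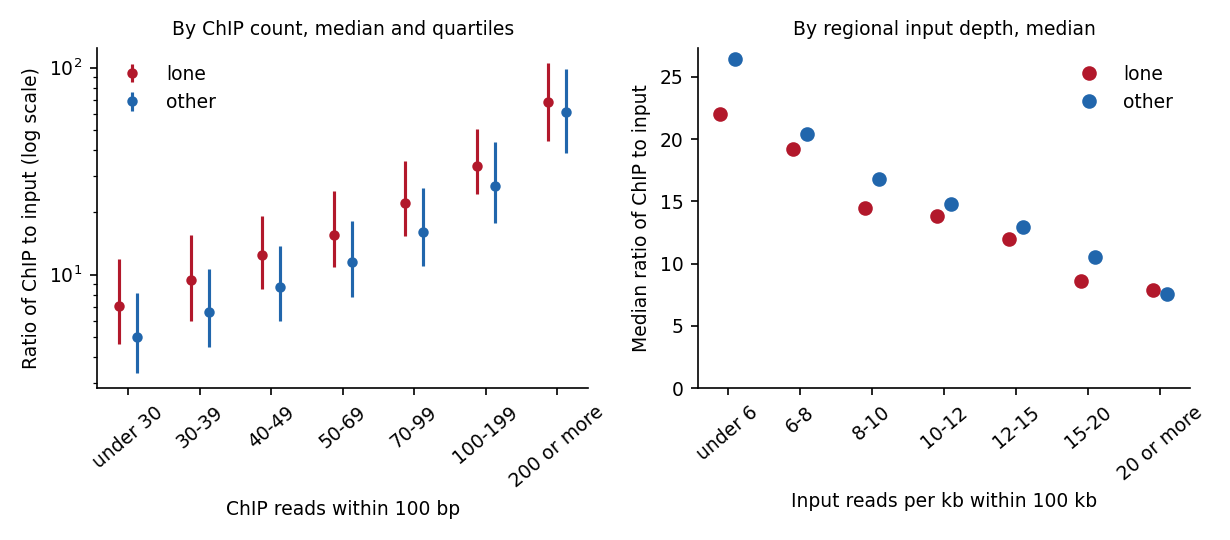
Ratio of ChIP to input reads within 100 bp (0.5 reads added) at lone and other sites. Left, medians with quartile bars on a log axis for 7 classes of ChIP count, where each lone median is the higher; right, medians for 7 classes of regional input depth on a linear axis, where the lone median is the lower in 6.

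Input chromatin was itself denser at the lone sites than around them. The 8625 input reads within 100 bp were 1.95 times the number expected from the surrounding 10 kb (exact 95% interval 1.91 to 1.99). At other sites the value was 1.71, and 1.68 when weighted to the same ChIP counts, so that the lone sites stood 1.16 times higher (1.13 to 1.18). The median over single sites was 1.64 at lone and 1.45 at weighted other sites. With other sites weighted by regional input depth as well, the quotient was 0.933 (0.911 to 0.956) for the sums and 1.05 for the medians, so neither direction held across both measures. Of the lone sites, 1392 (73.3%) had more input reads than expected and 313 (16.5%) had over 3 times as many. Among other sites these shares were 70.8% and 9.94%. A low expected count makes a given multiple easier to reach, and the median input count of the surrounding 10 kb was 108 at lone and 171 at other sites.

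The input excess was greatest at sites with many ChIP reads, lone and other alike. At lone sites it ranged from 1.76 to 2.09 over the 6 classes under 200 ChIP reads and was 3.48 at 200 or more. The site at 197067905 on chromosome 1 supplied 350 of the input reads in that last class, and without it the excess was 2.36 (2.19 to 2.55) and the pooled ratio of ChIP to input rose from 47.8 to 71.1 (66.0 to 76.7). Without that site the excess over all lone sites was 1.87. Other sites had an excess of 1.57 to 1.81 in the 6 classes under 200 ChIP reads and 2.41 at 200 or more. Those over 10 kb from a listed position had 2.32 at 200 or more. At 8 lone sites (0.421%), 10 or more input reads stood at over 10 times the surrounding density. This was so at 44 other sites (0.155%), with regional input depth not matched. Among other sites over 10 kb from a listed position, 17 (0.150%) had such input reads. The 5 largest values were 85.8 at 197067905 on chromosome 1, 52.3 at 13107767 on chromosome 18, 29.6 at 66401058 on chromosome 13, 28.2 at 36368347 on chromosome 17 and 27.9 at 14306944 on chromosome 8. Of these, the chromosome 13 site had 27 ChIP and 17 input reads and was not called (adjusted p = 0.0974, exact binomial test).

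The ChIP signal at lone sites was a narrow pile on a low flank that fell off with distance. Scaled to library depth as RPM, ChIP reads stood at 13.6 RPM per kb within 100 bp of the position. They fell to 1.86 between 100 and 250 bp, 0.756 between 250 and 500 bp, 0.488 between 500 and 1000 bp and 0.405 between 1 and 2 kb. Farther out they settled at 0.338 between 5 and 10 kb and 0.321 between 50 and 100 kb. The centre was thus 33.6 times the ring from 1 to 2 kb. Input reads went from 0.808 RPM per kb at the centre to 0.423 at 1 to 2 kb, a 1.91-fold difference, and 0.370 at 50 to 100 kb. From 1 kb outward, ChIP density lay below input density in every ring. Outside all listed sites of the genome, ChIP reads also stood below input reads, at the 0.925 given above, and other sites over 10 kb from a listed position likewise had less ChIP than input density between 1 and 10 kb. Read starts, counted once per position and strand, were densest 76 bp before the position on the plus strand and 72 bp after it on the minus strand. At other sites these distances were 74 and 77 bp.

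Of the ChIP reads within 1 kb of a lone site, 65.8% lay within 100 bp (Wilson 95% interval 65.6 to 66.0%). This share rose with the ChIP count, from 45.9% under 30 reads to 77.3% at 200 or more. That count is also the numerator of the share, so a rise was in part set by the classes. Over all ChIP counts the share was 48.6% at other sites, many of which have a listed neighbour inside that same 1 kb. At other sites over 10 kb from any listed position it was 62.4%, and rose likewise from 41.8% under 30 reads to 75.9% at 200 or more. Weighted to the same ChIP counts, the lone sites stood 1.43 times above all other sites (1.42 to 1.44), 1.07 times above those over 10 kb from a neighbour (1.06 to 1.07) and 1.01 times above them once regional input depth was matched too (1.00 to 1.02). Those other sites had 0.533 ChIP RPM per kb between 1 and 2 kb and 0.572 input RPM per kb. The centre of 13.9 was 26.0 times their flank. The weighting sets the ChIP centre, so the sets can be compared only in the flank and the input, and the flank was lower at lone sites in both libraries.

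**Figure D3:**
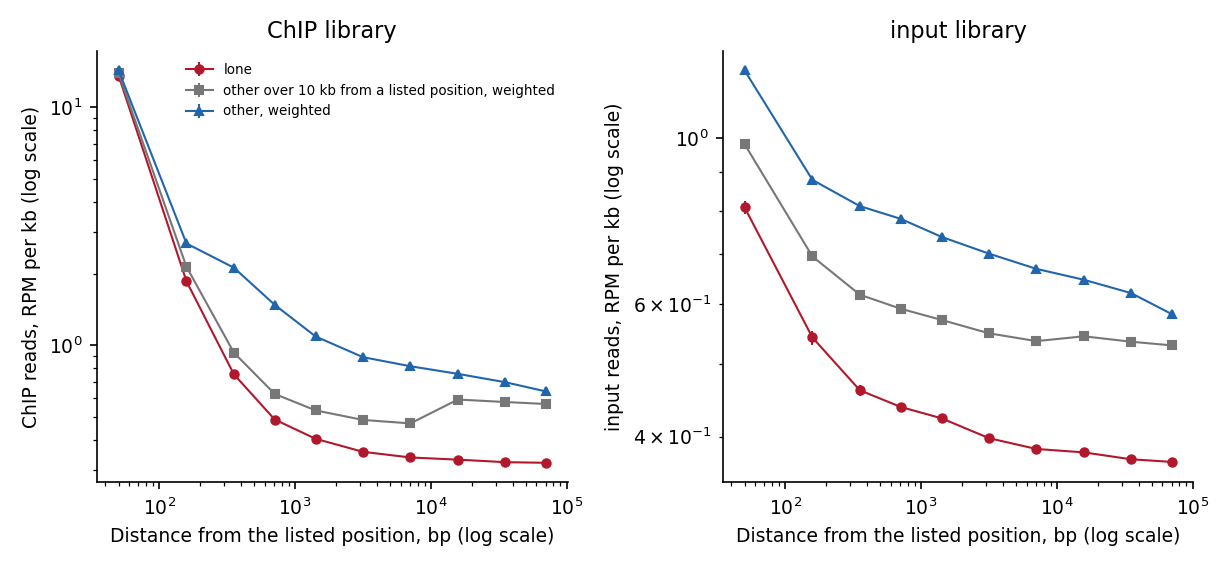
Read density in RPM per kb (log axis) by distance from the listed position (log axis, in rings out to 100 kb) in the ChIP library (left) and the input library (right), for lone sites, other sites, and other sites over 10 kb from a listed position, the latter 2 sets weighted to the ChIP counts of lone sites. Bars are 95% counting intervals, mostly smaller than the symbols; ChIP centres lie between 13.6 and 14.3 by the weighting, while input density is lowest at lone sites in every ring.

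A site that was alone in the list was not always alone in the reads. A scan of bins of 200 bp for more ChIP than input reads, counted once per position and strand, called 0.439% of all 10722692 bins. Passing bins were joined into regions where they lay within 500 bp of each other. Of the lone sites, 700 (36.8%, Wilson 95% interval 34.7 to 39%) had at least 1 such region within 100 kb that lay more than 1 kb from every listed position. With at least 20 distinct ChIP reads required in a bin, 398 lone sites (20.9%, 19.2 to 22.8%) had one. The remaining 1502 had no such region, and 138 of the 398 had one whose highest bin held more distinct reads than the lone site itself. Regions with 20 or more reads were sparser near lone sites than elsewhere on chromosomes 1 to 19, at 1.28 per Mb of covered sequence (1.17 to 1.41) against 1.77 (1.71 to 1.84), a quotient of 0.723 (0.653 to 0.799). Without that minimum the quotient was 0.839 (0.781 to 0.901). Read depth was lower around lone sites, as given below, and its part in these quotients was not tested. The scan met 1671 of the 1900 lone sites themselves (87.9%) and 83.5% of the other sites, so it did not find every listed site.

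The 5 strongest of these regions, picked after their values were seen, show how far the list and the reads could differ. On chromosome 18, the region from 52465200 to 52465799 had 247 distinct ChIP reads in its highest bin. The lone site next to it, at 52463972, lay 1.53 kb away with a height of 31. On chromosome 2, the region from 53567600 to 53567999 had 192, at 2.62 kb from the lone site at 53570417, whose height was 118. On chromosome 10, the region from 89295000 to 89295599 had 238 and lay 80.8 kb from the site at 89376069 named above. The last 2 lay on chromosome 3. The region from 20074600 to 20074999 had 156 and lay 40.1 kb from the lone site at 20034685 (height 48), and the region from 73586600 to 73587199 had 153 and lay 74.7 kb from the lone site at 73512203 (height 26).

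Lone sites lay in regions with fewer input reads. Within 100 kb of a lone site the input library held a median of 10.1 reads per kb, with quartiles of 7.91 and 12.5 and a range of 1.13 to 28.2. Around other sites the median was 15.9, with quartiles of 12.6 and 19.8. The quotient of medians was 0.636, and 1778 lone sites (93.6%) lay below the median of other sites. The lone median was the lower on each of the 19 chromosomes, by a factor between 0.548 on chromosome 4 and 0.757 on chromosome 9. Weighting other sites to the chromosomes of lone sites gave 0.675. What sets input depth in a region was not tested. The share of 1 kb bins with an input read within 100 kb had a median of 97.0% at lone and 99.5% at other sites.

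The share of listed sites that stood alone fell step by step with regional depth. Where the input held under 6 reads per kb, 114 of 254 listed sites were lone (44.9%, Wilson 95% interval 38.9 to 51.0%). The next classes gave 33.0% (6 to 8 reads per kb), 18.8% (8 to 10), 11.5% (10 to 12), 5.90% (12 to 15) and 1.64% (15 to 20). At 20 or more, 15 of 6809 sites were lone (0.220%, 0.134 to 0.363%). ChIP depth moved with input depth, since their ratio outside listed sites was 0.960 around lone and 0.966 around other sites, and the part of depth in this gradient was not tested.

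**Figure D4:**
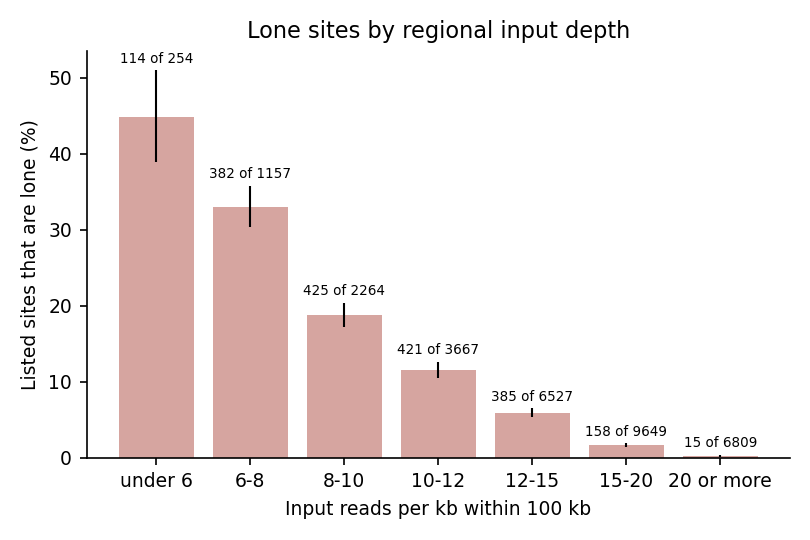
Percent of listed sites on chromosomes 1 to 19 that are lone, by input reads per kb within 100 kb of the site. Bars start at 0, black lines are Wilson 95% intervals and the numbers give lone and listed sites; the share goes from 44.9% in the lowest class to 0.220% in the highest.

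Distance to the nearest listed position followed the same axis through the whole list. The median regional input depth was 17.5 reads per kb for sites with a neighbour within 1 kb and 17.4, 16.7, 15.7, 14.0 and 12.4 as that distance grew to 1 to 3, 3 to 10, 10 to 25, 25 to 50 and 50 to 100 kb. Within the lone sites it went on to 10.9 at 100 to 200 kb, 8.84 at 200 to 500 kb and 7.07 over 500 kb. The median height stayed between 34 and 38 through all 9 classes of distance. The median ratio of ChIP to input went from 10.7 to 11.9 in the classes up to 50 kb to 12.5 at 50 to 100 kb, 13.2 at 100 to 200 kb, 16.7 at 200 to 500 kb and 18.8 over 500 kb, as input depth fell. In sequence over 1 kb from every listed position, the ratio of ChIP to input within 100 kb was 0.960 (0.959 to 0.962) around lone sites and 0.966 (0.965 to 0.966) around other sites.

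The lone sites at the 2 extremes of regional depth differed in their ratios, and none of them had a height of 100 or more. In the sparsest regions 4 of 5 had ratios of 39.5 to 95.2 and the fifth had 1.72, while in the deepest regions the 5 ratios ran from 2.09 to 19.5. The ratio of 39.5, at 89102227 on chromosome 12, rested on repeated reads. Counted once per position and strand it was 14.8, below the 17.3 at 83631481 on chromosome 15 in the deepest regions. The 5 in the sparsest regions were at 89102227 on chromosome 12 (1.13 input reads per kb, 146 ChIP and 4 input reads), 66401058 on chromosome 13 (1.37, with 27 and 17), 86394979 on chromosome 13 (3.55, with 57 and 1), 91543051 on chromosome 3 (3.85, with 112 and 3) and 90527498 on chromosome 18 (3.97, with 88 and 1). Around the first pair of these sites, 31.3% and 37.3% of 1 kb bins had any input read. Sites in the deepest regions lay on chromosomes 15 and 5. They were 83631481 on chromosome 15 (28.2 reads per kb, 72 and 4 reads), 37589590 on chromosome 5 (27.7, with 36 and 8), 83793405 on chromosome 15 (26.5, with 29 and 15), 101324824 on chromosome 15 (26.4, with 33 and 8) and 37754621 on chromosome 5 (25.7, with 47 and 5). Of these 10, only the site at 66401058 on chromosome 13 was not called higher in the ChIP library.

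Chromosomes differed in the share of their listed sites that stood alone. It was highest on chromosome 13 (116 of 998, 11.6%, Wilson 95% interval 9.78 to 13.8%) and chromosome 3 (150 of 1490, 10.1%), and lowest on chromosome 15 (52 of 1922, 2.71%, 2.07 to 3.53%), chromosome 11 (3%), chromosome 19 (3.47%) and chromosome 5 (3.53%). Across the 19 chromosomes this share went down with input reads per covered Mb (Pearson r = -0.80, Spearman rho = -0.72), and with chromosomes 5 and 15 left out, which lay farthest from the median on that axis, the values were -0.72 and -0.62. It also went down with listed sites per Mb (r = -0.89, rho = -0.85), which the rule on distance brings about. These are descriptions over chromosomes of the same libraries. The number of lone sites per covered Mb varied less, with a lowest value of 0.535 (exact Poisson 95% interval 0.400 to 0.702) on chromosome 15 and a highest of 1.09 (0.890 to 1.33) on chromosome 16, while listed sites ran from 9.11 to 21.3 per Mb. Its relation to input reads was weaker (r = -0.53, rho = -0.42) and was -0.29 and -0.20 with the same pair left out. Lone sites had the higher median ratio of ChIP to input on 16 chromosomes. It was lower on chromosome 13 (14.8 against 17.7), chromosome 18 (13.3 against 14.7) and chromosome 15 (7.09 against 7.57).

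**Figure D5:**
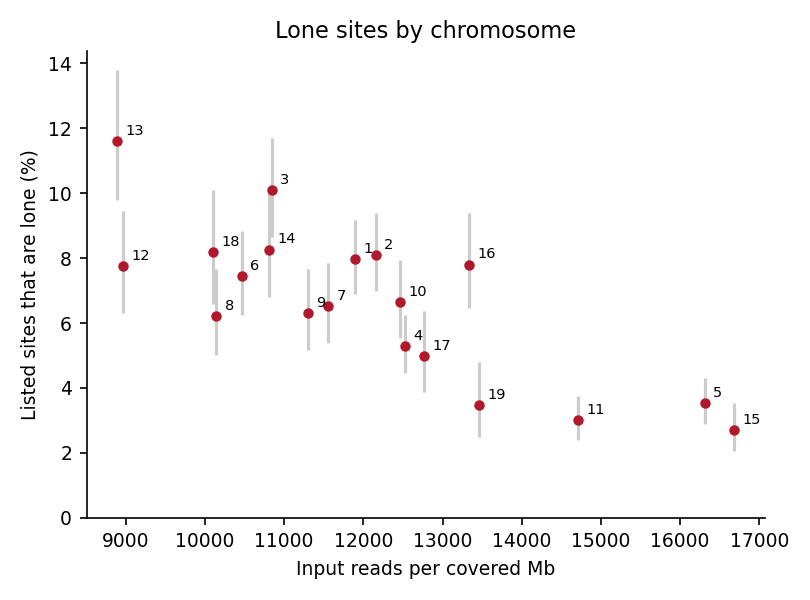
Percent of listed sites that are lone against input reads per covered Mb for chromosomes 1 to 19, each point labelled with its chromosome. Grey bars are Wilson 95% intervals; the share ranges from 2.71% on chromosome 15 to 11.6% on chromosome 13.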

How the data were processed

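ChIP-seq reads of 1 Ptf1a library and 1 input library of 266.6 cells were analysed. The authors deposited counts of placed reads, 1 line of 37 bp per read, on mm9 per the submitters' processing notes, and a peak track with a signal value per position and a span of 100 bp, per the file headers. The sources used here do not give the aligner, filters or peak caller.

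Each 5′ end was moved 73 bp downstream, and reads were counted up to 100 bp on both sides of the listed position, since reads pile up symmetrically around it while the span covers its downstream side. Sites were tested with an exact two-sided binomial test against the ratio outside listed sites, with Benjamini-Hochberg adjustment over all 30691 sites at 0.05. Classes of ChIP reads began at 30, 40, 50, 70, 100 and 200. Sites named were the extremes of the lone sites in ratio (10 highest lower limits, 5 lowest), distance, height, regional input depth and local input excess (at least 10 input reads), 5 each, and 3 to each side of the distance limit. A floor of 3 reads replaced counts of 0. Intervals of weighted quotients use Poisson errors. The members and lists were chosen with earlier results of these data known. Alternatives were the window, repeated reads, the shift, scaling, the distance and the surroundings. Sites on chromosome X were left out by the rule. Code was tested on simulated data (Python 3.11.15, numpy 2.4.6, scipy 1.17.1).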

Additional observations from a re-analysis of the deposited data

How the results depend on the processing

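No paired analysis was possible because each group has 1 library. Of the lone sites, between 95.9% (deposited span) and 100.0% (input density of the surrounding 10 kb) were called higher under the 8 alternatives. The setting with the surrounding 10 kb leaves out the input reads at the site itself. The pooled ratio of ChIP to input at lone sites, 18.6, was 15.6 with 1 read per position and strand, 14.9 with 5′ ends not moved, 16.8 with library totals, 21.7 and 17.8 at a lone distance of 200 and 50 kb, and 19.3 without the lone site with the most input reads. Against other sites of like ChIP count it was 1.45 times higher, and 1.48 with the span, 1.61 and 1.41 at 200 and 50 kb, 1.25 without the 1% of listed sites with the most input reads in 10 kb, 1.19 against other sites over 10 kb from a listed position and 1.15 with regional input depth matched. The quotient of medians, 1.40, was then 1.27 and 1.03. Local input excess, 1.95, was 1.85 with 1 read per position and strand, 1.78 with ends not moved, 1.90 in the span, 2.00 without the central 2 kb, 2.08 against 50 kb, 1.86 at 50 kb and 1.87 without that site. Its quotient to other sites, 1.16, was 1.12 over 10 kb from a listed position and reversed to 0.933 with depth matched; weighting by depth puts other sites of sparse regions in place of those in deep ones.

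The share of ChIP reads within 100 bp, 65.8%, was 60.9% with 1 read per position and strand, 49.5% with ends not moved, 33.4% in the span of 100 bp, which is narrower, and 67.5% and 64.6% at 200 and 50 kb. Its quotient, 1.43, was 1.07 and, with depth matched, 1.01. Regional depth, 0.636 of that at other sites, was 0.543 and 0.694 at 200 and 50 kb, 0.675 by chromosome and 0.694 within 500 kb. The share of lone sites with an unlisted region, 36.8%, was 20.9% with at least 20 distinct reads, and 31.6% and 44.5% at 200 and 50 kb. Where no cause is given, the cause was not tested. Weighting by depth, other sites over 10 kb from a neighbour, and leaving out that site were chosen after seeing the data. Few input reads per site limit single ratios.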
